A study of Mus musculus with 18 samples.

Results

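The collagen hydroxylases and crosslinking enzymes examined here are P4ha1, P4ha2, P4hb, Plod1, Plod2, Plod3, Lox and Loxl2, together with the collagen chaperone Serpinh1. They were taken by gene symbol from tables of bulk RNA-seq of mouse stem cells, 9 genes of 14804 listed in all. The ESC and XEN tables listed 8 of the 9, without Lox, and the TSC table listed all 9. Every listed member passed the filter on low values, TPM above 0.4 in at least 2 of 6 libraries.

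Wild-type E14 embryonic stem cells (ESCs), a model of the epiblast, were grown on gelatin without feeders. Trophoblast stem cells (TSCs), a model of the trophectoderm, were grown on feeders, a layer of fibroblasts, and the methods do not say whether these were removed before RNA was taken. Extra-embryonic endoderm (XEN) cells, a model of the primitive endoderm, were grown on gelatin in medium in part conditioned on mouse embryonic fibroblasts. Each type was kept in normoxia (20% O2), for which the labels give no day, or in hypoxia (2% O2) for 2 or 7 days. There were 2 libraries per condition and 18 in all. The same normoxic libraries of a cell type served both time points. A change with days in hypoxia can thus not be told apart from one with days in culture. No genetic change or drug was part of any group.

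Collagen chains are modified in the endoplasmic reticulum before they fold into a triple helix. Prolyl 4-hydroxylases, whose catalytic alpha subunits are encoded by P4ha1 and P4ha2 and whose beta subunit is protein disulphide isomerase (P4hb), stabilise that helix. Lysyl hydroxylases (Plod1, Plod2, Plod3) prepare lysines for crosslinks and sugars, Serpinh1 (HSP47) binds the folded procollagen, and the secreted lysyl oxidases Lox and Loxl2 start the crosslinks between fibrils outside the cell. The hydroxylases use molecular oxygen as a substrate, and several of these genes are textbook targets of hypoxia-inducible factors. Primitive endoderm and its parietal derivatives are known for laying down large amounts of basement membrane collagen.

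The promoter letters nearest the start are shown for the prolyl 4-hydroxylase subunits, whose alpha and beta subunits gave different values in hypoxia, and for Plod3, which had the smallest fold change in ESCs on day 7. The core of the hypoxia response element was searched as ACGTG and GCGTG on both strands, so that CACGT and CACGC mark the other strand. ACGTG and CACGT also form part of the E-box CACGTG. Capitals mark the matches in the 250 bases before the RefSeq start (GRCm38.p6), read in the direction of the gene.
P4ha1, chr10:59323046-59323295, plus strand: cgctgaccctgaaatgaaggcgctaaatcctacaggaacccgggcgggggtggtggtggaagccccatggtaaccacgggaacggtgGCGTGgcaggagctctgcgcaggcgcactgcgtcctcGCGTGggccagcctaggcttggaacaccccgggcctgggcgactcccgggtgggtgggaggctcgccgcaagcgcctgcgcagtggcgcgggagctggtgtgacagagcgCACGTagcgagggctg
P4ha2, chr11:54100674-54100923, plus strand: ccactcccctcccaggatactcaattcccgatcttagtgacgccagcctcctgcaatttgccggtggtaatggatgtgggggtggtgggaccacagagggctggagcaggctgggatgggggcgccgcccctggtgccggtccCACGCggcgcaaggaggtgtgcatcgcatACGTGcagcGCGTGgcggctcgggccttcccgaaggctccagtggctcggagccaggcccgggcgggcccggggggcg
P4hb, chr11:120573254-120573503, minus strand: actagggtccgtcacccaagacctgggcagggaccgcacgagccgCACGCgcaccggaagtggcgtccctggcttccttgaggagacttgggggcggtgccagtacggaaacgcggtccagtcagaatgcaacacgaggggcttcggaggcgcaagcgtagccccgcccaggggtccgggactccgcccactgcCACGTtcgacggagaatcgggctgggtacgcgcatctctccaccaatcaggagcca
Plod3, chr5:136986769-136987018, plus strand: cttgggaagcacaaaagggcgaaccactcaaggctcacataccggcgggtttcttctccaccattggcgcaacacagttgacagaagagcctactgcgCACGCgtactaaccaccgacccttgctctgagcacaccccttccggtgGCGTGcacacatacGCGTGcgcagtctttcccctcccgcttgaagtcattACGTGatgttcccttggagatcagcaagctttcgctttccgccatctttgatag
P4ha1 and P4ha2 each held 3 matches, P4hb held 2 and Plod3 held 4. Among the other members found in RefSeq's promoter table, Plod1 and Serpinh1 each held 1. At least 1 match stood in 38.6% of all 32851 promoters of this length, at least 2 in 16.7% and at least 3 in 6.58%. A match of letters is a description, and no binding was measured in these data.

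Some facts of the libraries bear on what follows. The recovered reads per library ran from 35592641 to 75204029. Defining markers fitted their labels, with Pou5f1, Nanog and Sox2 high in ESCs, Cdx2, Eomes and Elf5 in TSCs and Gata4, Gata6 and Sox17 in XEN cells. In TSCs, Cdx2, Eomes and Elf5 were all lower in both day 7 libraries than in the 4 others, Cdx2 for example at 34.0 and 37.0 against 79.2 to 153 exon-length TPM. Tfap2c, another TSC marker, went the other way, at 385 in both day 7 libraries against 295 to 383. Gata3 was 109 and 83.0 on day 7 against 109 to 224. TSC libraries normoxia replicate 1 and day 2 replicate 2 stood apart by markers of fibroblasts, as given below, and results in TSCs are therefore also given without them. In ESCs, day 2 replicate 1 had a smaller hypoxia response than the other hypoxic libraries. It is measured here as the median, over 14 genes commonly raised in hypoxia such as Pdk1, Ldha and Bnip3, of the log2 difference from the normoxic mean. It was 0.65 on day 2 replicate 1 and 1.37 on replicate 2, and 1.44 and 0.71 on day 7.

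The 3 cell types differed widely in how much of this machinery they expressed. Levels of different genes are compared here as exon-length TPM, which was recomputed from the reads, because the deposited TPM divided by the whole span of a gene. Each table was normalized separately, so levels set side by side across cell types carry no test. The 10899 genes listed in all 3 tables took between 95.8% and 99.3% of this scale in every library.

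In normoxia the order was XEN over TSC over ESC for all 8 members listed in every table. Serpinh1 stood at 5635 ± 931 exon-length TPM in XEN cells, 908 ± 166 in TSCs and 50.5 ± 5.38 in ESCs (SD, n = 2), and its XEN mean was 112-fold that of ESCs. P4hb was 4536 ± 657, 1159 ± 92.5 and 660 ± 10.3 in the same order. Serpinh1 and P4hb were the 8th and 12th most abundant of 11538 genes in normoxic XEN cells, whereas in ESCs Serpinh1 was number 3771 of 13578.

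The alpha subunits were further apart between cell types than the beta subunit. P4ha1 was 1181 ± 49.5 exon-length TPM in XEN cells, 135 ± 49.2 in TSCs and 15.4 ± 1.54 in ESCs. For P4ha2 the levels were 680 ± 62.5, 28.8 ± 0.60 and 4.42 ± 0.77 (SD, n = 2 throughout), which put the XEN mean at 154-fold that of ESCs against 6.88-fold for P4hb. ESCs thus held 31.0 and 35.8 times as much P4hb as both alpha subunits together in their normoxic libraries, and XEN cells 2.20 and 2.67 times. P4hb also works as a general disulphide isomerase without the alpha subunits.

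Among lysyl hydroxylases the leading gene changed with the cell type. Plod2, which acts on the collagen telopeptides, was the highest of the 3 in XEN cells at 1252 ± 135 exon-length TPM, where Plod3 was 395 ± 24.8 and Plod1 152 ± 31.6. In TSCs Plod1, which acts within the helix, was 128 ± 17.4, Plod3 98.2 ± 21.6 and Plod2 76.3 ± 19.0. Both normoxic TSC libraries held this order, with 140, 114 and 89.7 in replicate 1 and 116, 82.9 and 62.9 in replicate 2. In ESCs Plod3, which also transfers sugars, was 40.8 ± 2.74, Plod2 34.2 ± 2.06 and Plod1 13.5 ± 3.26.

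Lox, the lysyl oxidase of fibrillar collagen, was listed in TSCs alone. Loxl2, which acts on basement membrane collagen IV, was 299 ± 128 exon-length TPM in XEN cells, 95.03 ± 93.7 in TSCs and 2.15 ± 0.58 in ESCs, where it was the lowest member. The Loxl2 level of TSCs in normoxia rested on very unequal libraries, 161 and 28.8, both below the XEN libraries at 390 and 209. For Plod1 the normoxic libraries overlapped, at 130 and 174 in XEN cells and 140 and 116 in TSCs. Over all 6 libraries of each cell type, the lowest XEN value exceeded the highest TSC value for 7 of 8 members, with Plod1 as the exception. The lowest TSC value exceeded the highest ESC value for 7 of 8, with Plod2 as the exception.

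**Figure D1:**
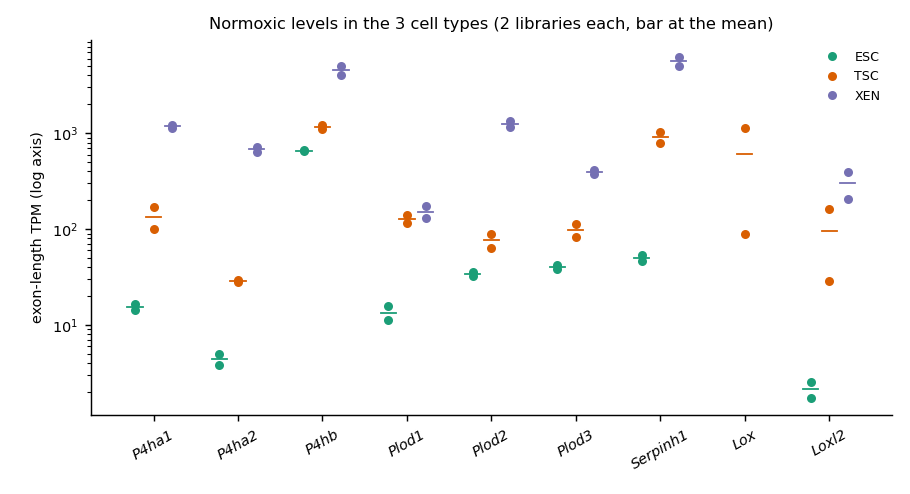
Exon-length TPM on a log axis for each member in normoxia, with a point for each of the 2 libraries and a bar at their mean. XEN cells were highest for each of the 8 members listed in all tables, and Lox appears only in TSCs, where its libraries were 1132 and 89.9.

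The collagens that these enzymes act on also differed between the tables. In normoxia, Col4a1 was 10789 and 14462 exon-length TPM in XEN cells, 1000 and 1153 in TSCs and 27.4 and 25.0 in ESCs. Of 11 fibrillar collagens, the XEN table listed 4, and Col27a1 led them at 165 and 176. Col1a1 was not in the XEN table, was 1.34 in both normoxic ESC libraries, and was 689 and 84.7 in TSCs.

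The effect of hypoxia was then asked within each cell type, day 2 (acute) and day 7 (prolonged) each against normoxia. TPM given from here on are as deposited unless named as exon-length, and fold changes are those of TPM + 0.5, which understates changes of low genes. A gene was called differentially expressed (DE) at an adjusted p at or under 0.1 (limma, Benjamini-Hochberg over all genes tested) and a change over 1.5-fold. In bulk samples, fewer cells of a type and less RNA per cell cannot be told apart. The methods call the replicates biological and say no more of their origin. P-values thus set a change only against the spread between replicate libraries. That spread was estimated over the 6 libraries of a cell type and drawn towards a trend over all genes.

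In ESCs, P4ha1, Plod2 and Loxl2 had higher values in all 4 hypoxic libraries, most of all in the 2 libraries with the largest hypoxia response, while none of the 8 passed the test. On day 2, 0 of 8 members were DE against 0% of 12271 genes tested, and limma's voom on the recovered reads also called 0. An unadjusted p under 0.05 was reached by 3 of 8, P4ha1, Plod2 and Loxl2, against 5.05% of all genes. Both day 2 libraries lay above both normoxic libraries for the same 3 members, and for 16.4% of all genes. The median log2 fold change of the 8 was 0.34, beside 0.01 over all genes.

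On day 7 no member was DE in ESCs, against 0.758% of all genes, and voom called P4ha1 alone, against 0.905%. Unadjusted p was under 0.05 for 4 of 8, namely P4ha1, Plod2, Loxl2 and Serpinh1, against 8.04% of genes. Both day 7 libraries lay above both normoxic libraries for 7 of 8 members, all but Plod3, and for 23% of all genes. Their median log2 fold change was 0.68, beside 0.02 over all genes. Some genes used as markers of other cell types had higher values in these libraries too. Over all genes, 6685 of 12271 had a log2 fold change above 0. The 4 TSC markers listed in ESCs summed to 73.8 and 76.9 exon-length TPM in normoxia and 104 and 120 on day 7, with 4 of 4 higher and 0 DE. Tfap2c alone was 63.0 and 64.5 in normoxia and 86.4 and 100 on day 7. Eomes, also on that list, is among the primitive streak genes that the paper reports as raised in hypoxic ESCs. Of 8 parietal endoderm markers 7 were higher and 0 DE, and their sums were 501 and 389 in normoxia and 481 and 546 on day 7. Of 6 XEN markers tested, 4 were higher and 0 DE, with a median log2 fold change of 0.05. Of 4 markers of trophoblast giant cells, the ESC table listed 1, Hand1. It was DE (log2 fold change 2.04) at 1.47 and 1.46 in normoxia and 8.67 and 5.76 on day 7. Whether cells of these types were present was not tested, nor was their part in the members' values.

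P4ha1 (chr10:59323296-59373304) had the smallest adjusted p of the members in ESCs at both times. It was 4.10 and 3.46 TPM in normoxia, 6.97 and 15.1 after 2 days of hypoxia, and 16.4 and 10.3 after 7 days. All 4 hypoxic libraries lay above both normoxic libraries, and the lowest of them was day 2 replicate 1. The log2 fold change was 1.34 ± 0.34 (SE) on day 2 and 1.67 ± 0.34 on day 7, with adjusted p of 0.621 and 0.119 (limma). The day 7 value lay close to the threshold, and the adjusted p ran from 0.0042 to 0.849 over 17 alternatives, of which 6 called it DE.

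P4ha2 (chr11:54100095-54131665), the other alpha subunit, had 2.96 and 2.25 TPM in normoxia, 2.41 and 6.23 after 2 days of hypoxia, and 5.31 and 3.05 after 7 days. Day 2 replicate 1 lay among the normoxic libraries, whereas both day 7 libraries were above them. Its log2 fold changes were 0.52 ± 0.39 and 0.56 ± 0.39 (adjusted p 0.987 and 0.860), and the first turned to -0.09 without day 2 replicate 2. The ratio of P4ha1 to P4ha2 was 3.33 and 3.70 in normoxia and between 5.84 and 8.14 in the 4 hypoxic libraries (exon-length TPM).

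The beta subunit P4hb (chr11:120560298-120573253) stayed between 405 and 504 TPM over the 6 ESC libraries. Its log2 fold changes were -0.03 ± 0.13 on day 2 and 0.14 ± 0.13 on day 7. P4hb thus went from 31.0 and 35.8 times the summed alpha subunits in normoxia to 20.9 and 8.50 times on day 2 and 10.1 and 14.5 times on day 7.

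Plod2 (chr9:92542223-92608428) followed the same order of libraries as P4ha1, apart from the 2 highest. In ESCs it was 8.77 and 7.83 TPM in normoxia, 9.76 and 21.2 after 2 days of hypoxia, and 20.9 and 14.3 after 7 days. Its log2 fold change was 0.77 ± 0.33 on day 2 (adjusted p 0.970) and 1.02 ± 0.33 on day 7 (adjusted p 0.411). Plod1 (chr4:147909753-147936767) was 11.9 and 8.20 TPM in normoxia and 14.4 and 12.8 on day 7, a log2 fold change of 0.44 ± 0.20 (adjusted p 0.651). Plod3 (chr5:136987019-136996648) stayed between 53.4 and 66.7 TPM in all 6 libraries, with log2 fold changes of 0.09 ± 0.14 and 0.00 ± 0.14. Of the exon bases of Plod3, 11.7% overlap exons of Znhit1 on the other strand, and the strand setting of the counting is not given in the sources used here.

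Loxl2 (chr14:69609068-69695834) was the lowest member in ESCs and had the widest spread. It was 0.48 and 0.32 TPM in normoxia, from 132 and 123 reads, 0.79 and 3.38 on day 2, from 336 and 1515 reads, and 3.12 and 1.16 on day 7. Each hypoxic library lay above both normoxic libraries. The log2 fold change of TPM + 0.5 was 1.319 ± 0.51 on day 2 (adjusted p 0.952) and 1.45 ± 0.51 on day 7 (adjusted p 0.471). Normoxic values of Loxl2 were about as low as the 0.5 added, and over 17 alternatives, other pseudocounts and voom among them, its log2 fold change ran from 0.53 to 2.11 on day 2 and from 0.89 to 2.36 on day 7.

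Serpinh1 (chr7:99345376-99353239) had higher values on day 7 but not on day 2. In ESCs it was 50.9 and 42.5 TPM in normoxia, 43.8 and 59.6 after 2 days of hypoxia, and 106 and 62.6 after 7 days. The day 2 libraries overlapped the normoxic libraries, whereas both day 7 libraries lay above the 4 others. Its log2 fold change was 0.13 ± 0.25 on day 2 and 0.80 ± 0.25 on day 7 (adjusted p 0.987 and 0.377). Col1a1, a chain of the type I collagen that Serpinh1 is known to bind, was DE on day 7 in ESCs, with 1.58 and 1.53 TPM in normoxia, 1.63 and 2.55 after 2 days of hypoxia, and 15.1 and 6.05 after 7 days (log2 fold change 2.30 ± 0.37, adjusted p 0.054). The 6 fibroblast markers listed in ESCs, Col1a1 among them, summed to 22.2 and 21.3 exon-length TPM in normoxia and 35.9 and 27.0 on day 7. Within these sums Col1a1 was 1.34 in both normoxic libraries and 12.8 and 5.21 on day 7. Thy1, the highest marker in normoxia, was 15.3 and 13.6 and then 13.5 and 14.4. Of the 5 markers tested, 4 had a log2 fold change above 0, and the median was 0.25. The part of these markers in the Serpinh1 values was not tested.

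The calls in ESCs depended on the day 2 replicates. Without day 2 replicate 1, 4 of 8 members were DE, P4ha1, P4ha2, Plod2 and Loxl2, against 4.02% of all genes. Without replicate 2 none was, against 0.0163%. The day 7 call was affected as well, since all 6 libraries share an estimate of the spread. Without either day 2 library, or in a fit to the 4 libraries compared, 3 members were DE on day 7, P4ha1, Plod2 and Loxl2, against 2.62%, 2.6% and 2.61% of all genes in these fits.

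**Figure D2:**
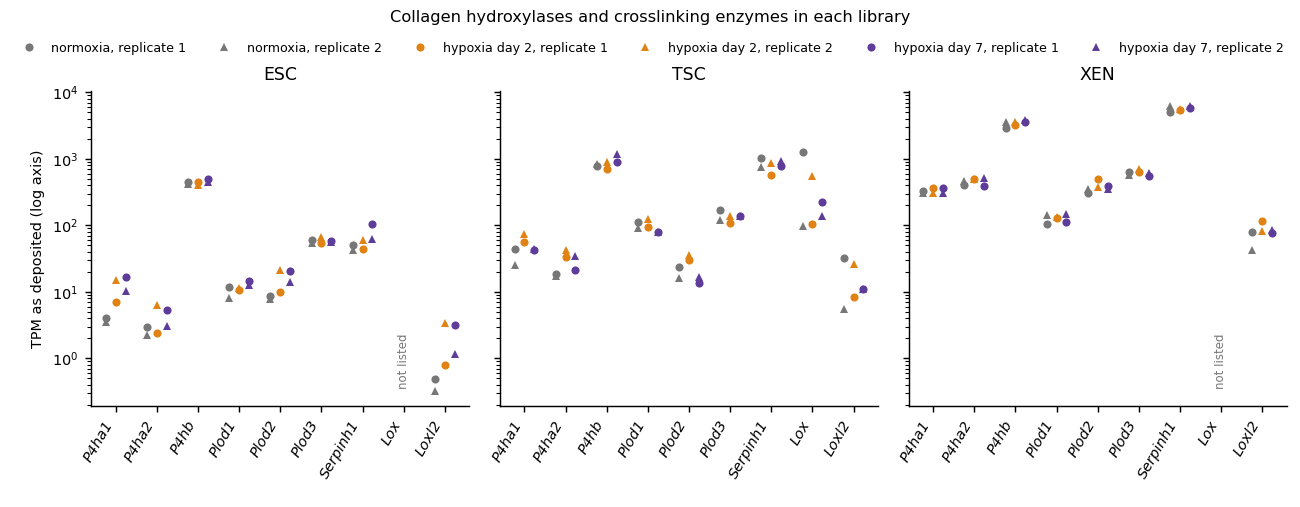
TPM as deposited, on a log axis, for each member in each library, with grey for normoxia, orange for day 2 and purple for day 7, circles for replicate 1 and triangles for replicate 2. In ESCs the hypoxic points of P4ha1, Plod2 and Loxl2 lie above the grey points. In XEN cells the points of a gene lie close together except for Loxl2, from 42.1 to 115, and in TSCs Lox spreads from 96.7 to 1247.

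In TSCs the prolyl 4-hydroxylase alpha subunits and Plod2 were higher on day 2 in both libraries, and Plod2 fell again by day 7. On day 2 against normoxia, 0 of 9 members were DE against 0.2% of 12481 genes, and voom called 0. Unadjusted p was under 0.05 for 3 of 9, P4ha1, P4ha2 and Plod2, against 13.1% of genes. The same 3 had both day 2 libraries above both normoxic libraries, as did 30.6% of all genes. The median log2 fold change of the 9 was 0.12, beside 0.07 over all genes.

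In TSCs all 4 hypoxic libraries of P4ha2 lay above both normoxic libraries. It was 18.4 and 17.4 TPM in normoxia, 33.6 and 43.3 after 2 days of hypoxia, and 21.4 and 34.3 after 7 days. The log2 fold change was 1.07 ± 0.27 on day 2 (adjusted p 0.224) and 0.59 ± 0.27 on day 7 (adjusted p 0.522). P4ha1 was 44.3 and 25.5 TPM in normoxia, 55.4 and 74.9 after 2 days of hypoxia, and 41.9 and 43.8 after 7 days, with 0.93 ± 0.29 on day 2 (adjusted p 0.287). Its day 7 libraries lay between the normoxic libraries. P4hb was 768 and 840 TPM in normoxia, 701 and 899 after 2 days of hypoxia, and 891 and 1176 after 7 days, a log2 fold change of -0.02 ± 0.22 and then 0.35 ± 0.22.

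Plod2 was the member of the 9 that passed the test in TSCs, and only between the hypoxic time points. It was 23.2 and 15.9 TPM in normoxia, 30.6 and 35.5 after 2 days of hypoxia, and 13.6 and 16.5 after 7 days. Both day 2 libraries were the highest of the 6, and day 7 replicate 1 was the lowest. From day 2 to day 7 it fell by 1.11 on the log2 scale (SE 0.25, adjusted p 0.046, limma), and voom called it too, with 15.6% of all genes. Day 7 against day 2 was the comparison with the most calls, 16.2% of all genes, and 1 of 9 members was DE. All genes together had a median log2 fold change of -0.24 there, and with median-ratio scaling in place of TPM the change of Plod2 was -0.83 (adjusted p 0.098). The call was lost when any of the 4 libraries compared was left out (adjusted p 0.136 to 0.205), and over all 18 alternatives the adjusted p ran from 0.028 to 0.205. Without both libraries high in fibroblast markers it stayed (log2 fold change -1.004, adjusted p 0.061), where the lone day 2 and normoxic libraries are assumed to vary like the day 7 pair. The 5 TSC markers summed to 935 and 1072 exon-length TPM on day 2 and 658 and 602 on day 7, though Tfap2c was higher on day 7. The part of these markers' change in the fall of Plod2 was not tested.

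On day 7 against normoxia, 0 of 9 members were DE in TSCs against 0.385% of genes, 0 had an unadjusted p under 0.05 against 10.4%, and voom called 0. Both day 7 libraries lay above normoxia for 2 of 9, P4ha2 and P4hb, against 8.98% of all genes. The median log2 fold change was -0.06, beside -0.18 over all genes. Plod1 went the other way, from 112 and 89.9 TPM in normoxia to 79.8 and 79.7, a log2 fold change of -0.33 ± 0.21 (adjusted p 0.640).

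Of 14 hypoxia response genes, 4 were DE and higher in TSCs on day 2, against 0.2% of all genes DE. The largest on the log2 scale were Car12 (2.67 ± 0.26), Pdk1 (2.47 ± 0.19) and Bnip3 (2.46 ± 0.18). Both day 2 libraries lay above both normoxic libraries for 12 of the 14, against 30.6% of all genes. None of the 14 was DE on day 7 against normoxia (6 with an unadjusted p under 0.05, against 10.4% of all genes, and 0 by voom). From day 2 to day 7, 8 of 14 were DE and lower, against 16.2% of all genes DE. Both day 7 libraries lay below both day 2 libraries for 12 of the 14, and for 5607 of all 12481 genes. Library by library, the median of the list stood at 1.324 and 1.392 on day 2 and 0.60 and 0.66 on day 7. Among the members, the group means of P4ha1, P4ha2 and Plod2 were likewise highest on day 2.

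**Figure D3:**
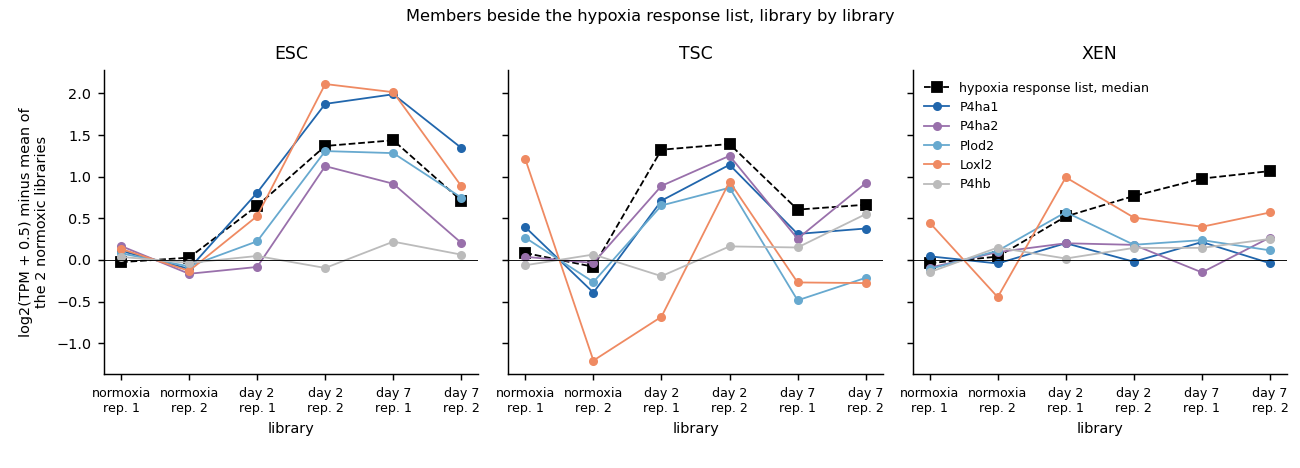
Difference of log2(TPM + 0.5) from the mean of the 2 normoxic libraries, for 5 members and for the median of the hypoxia response list (black squares), library by library. Lines join values only to guide the eye. In ESCs P4ha1, Plod2 and Loxl2 peak with the squares in day 2 replicate 2 and day 7 replicate 1, and P4hb stays flat. In TSCs P4ha1 and P4ha2 have their highest point in day 2 replicate 2.

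The crosslinking enzymes Lox and Loxl2 were highest in TSCs in the 2 libraries with the most fibroblast markers. Lox was 1247 and 96.7 TPM in normoxia, 105 and 549 after 2 days of hypoxia, and 227 and 139 after 7 days. Replicates within a group thus differed more than the groups did, and the log2 fold changes were -0.53 ± 1.19 and -0.97 ± 1.19 (adjusted p 0.873 and 0.791). Loxl2 was 32.0 and 5.57 TPM in normoxia, 8.24 and 26.4 on day 2 and 11.1 in both day 7 libraries, with 0.13 ± 0.80 and -0.27 ± 0.80.

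All 12 fibroblast markers were listed in TSCs, among them Col1a1, Postn, Thy1 and Prrx1, and 3 of the 12 are also on the fibrillar collagen list. Their summed exon-length TPM was 1495 and 213 in normoxia, 177 and 802 after 2 days of hypoxia, and 366 and 237 after 7 days. Normoxia replicate 1 and day 2 replicate 2 were the 2 highest libraries for 8 of the 12 markers and for the sum, as they were for Lox and Loxl2. Fap was at 0 in day 2 replicate 1. The part of these cells in the values of Lox and Loxl2 was not tested. In ESCs 6 of the 12 markers were listed and summed to between 20.5 and 35.9, and in XEN cells only Col1a2 and Pdgfrb were listed, with sums between 0.34 and 1.15.

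Lox varied with Col1a1 in TSCs. Lox itself ranged 12.6-fold over the 6 libraries, whereas its ratio to Col1a1 lay between 1.06 and 1.86 (exon-length TPM), a 1.76-fold range. Loxl2 ranged 5.60-fold by level and 3.41-fold by ratio. For the 7 other members the reverse held, as levels ranged between 1.53-fold (Plod1) and 2.89-fold (P4ha1) and ratios between 8.04-fold and 19.2-fold.

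Without both libraries high in fibroblast markers, the log2 fold change of Lox was 0.12 on day 2 and 0.87 on day 7 (adjusted p 0.951 and 0.169), and from day 2 to day 7 it was DE (0.75, adjusted p 0.090), as were 24.4% of all genes. In that fit P4ha1 was 1.10 on day 2 (adjusted p 0.120), P4ha2 0.93 (adjusted p 0.291) and Plod2 0.92 (adjusted p 0.335). Over all 18 alternatives these day 2 adjusted p ran from 0.120 to 0.888 for P4ha1, from 0.120 to 0.824 for P4ha2 and from 0.199 to 0.994 for Plod2, and that of Lox was never under 0.217 on day 2 or 0.158 on day 7. The direction of Lox against normoxia therefore turned with those libraries, and that of P4ha1, P4ha2 and Plod2 on day 2 did not. Serpinh1 in TSCs was 1013 and 763 TPM in normoxia, 563 and 858 after 2 days of hypoxia, and 783 and 938 after 7 days, with overlapping groups and log2 fold changes of -0.34 ± 0.27 and -0.04 ± 0.27. Plod3 lay between 109 and 169 TPM, highest in normoxia replicate 1.

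**Figure D4:**
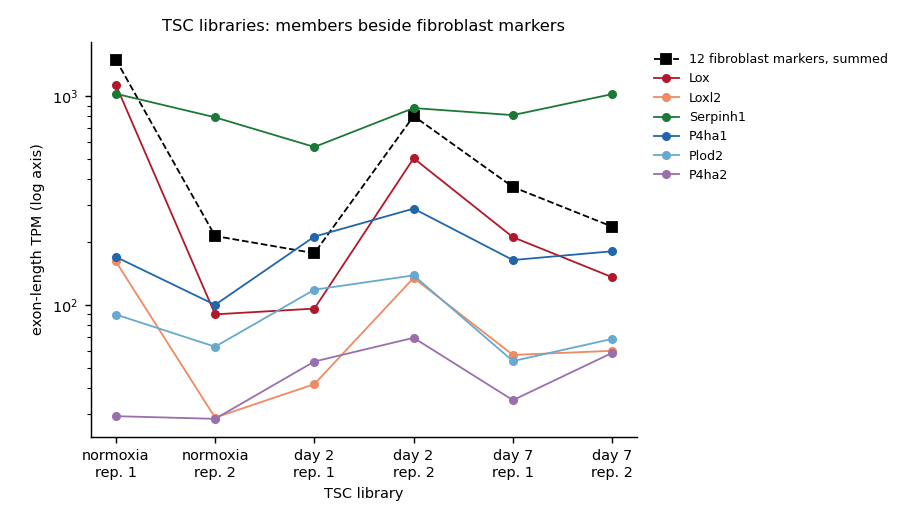
Exon-length TPM on a log axis in the 6 TSC libraries for the sum of 12 fibroblast markers (black squares) and 6 members. Lines join values only to guide the eye. Lox and Loxl2 peak in the same 2 libraries as the squares, whereas Plod2 is highest in the 2 day 2 libraries.

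In XEN cells, where the members were most abundant, none passed the test in hypoxia and the fitted changes were small, with Loxl2 as the exception in size. On day 2, 0 of 8 were DE against 0% of 10894 genes, voom called 0, and an unadjusted p under 0.05 was reached by 1 of 8, Loxl2, against 7.77% of genes. Both day 2 libraries lay above normoxia for 3 of 8, P4ha2, Plod2 and Loxl2, against 19.6% of all genes. On day 7, 0 of 8 were DE against 0.11%, voom called 0, no unadjusted p was under 0.05, against 9.01% of genes, and both libraries lay above normoxia for 1 of 8, Plod2, against 17.5%. Median log2 fold changes were 0.13 and 0.09, beside -0.01 and -0.03 over all genes.

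Loxl2 had the largest values of change in XEN cells. It was 78.8 and 42.1 TPM in normoxia, 115 and 82.2 after 2 days of hypoxia, and 76.1 and 85.8 after 7 days. The day 2 libraries were above normoxia, and the day 7 libraries straddled normoxia replicate 1. The log2 fold changes were 0.75 ± 0.31 (adjusted p 0.635) and 0.48 ± 0.31 (adjusted p 0.685), against 19407 to 52326 reads behind each value.

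Plod2 in XEN cells was 306 and 356 TPM in normoxia, 491 and 374 after 2 days of hypoxia, and 389 and 357 after 7 days. Its log2 fold changes were 0.38 ± 0.18 and 0.18 ± 0.18. P4ha1 lay between 306 and 366 TPM in all 6 libraries, with 0.09 ± 0.16 at both times, and P4ha2 between 392 and 524 with 0.19 ± 0.18 and 0.06 ± 0.18. Groups of both alpha subunits overlapped on day 7. P4hb ran from 2918 to 3849 TPM and Serpinh1 from 5017 to 6342, and neither had a fitted change over 0.20 in size on the log2 scale at either time. The hypoxia response list did move in these cells, with medians of 0.52 and 0.77 on day 2 and 0.98 and 1.07 on day 7, and Adm (4.16 ± 0.30) and Egln3 (2.81 ± 0.20) were DE on day 7.

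Between the hypoxic time points, no member was DE in ESCs (0.179% of genes were) or XEN cells (0.0367%), and voom called 0 in both. Unadjusted p was under 0.05 for Serpinh1 alone of 8 in ESCs (4.26% of genes) and for 0 of 8 in XEN cells (11.9%). In TSCs it was under 0.05 for Plod2 alone of 9 (27.9%).

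**Figure D5:**
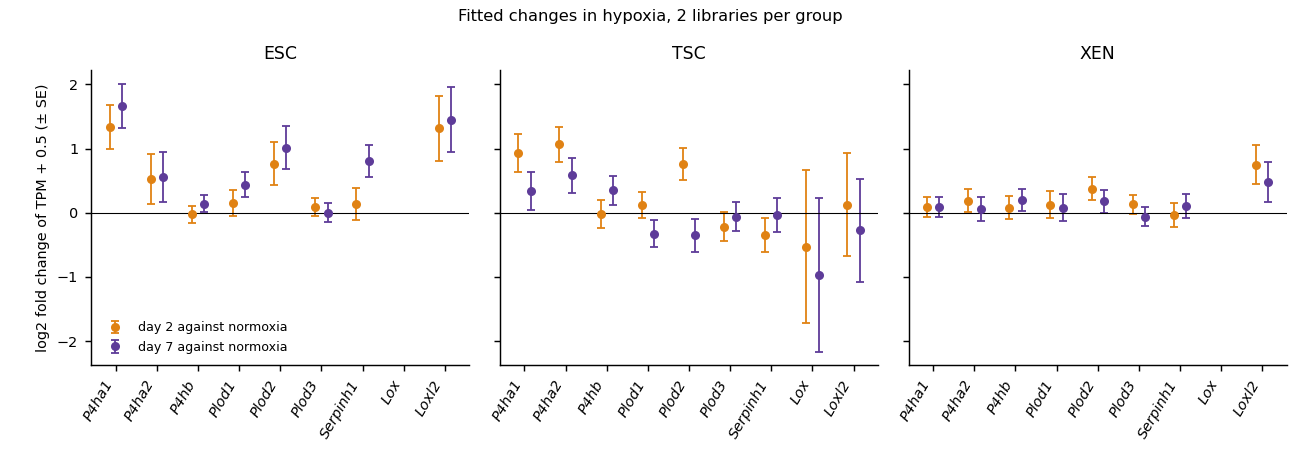
Fitted log2 fold change of TPM + 0.5 with its SE for each member on day 2 (orange) and day 7 (purple) against normoxia, from 2 libraries per group. The values of P4ha1 in ESCs are 1.34 and 1.67, those in XEN cells are 0.09, and the bars of Lox and Loxl2 in TSCs span 0.

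Of 18 other collagen processing genes tested in ESCs, 0 were DE on day 2 against 0% of all genes (limma), and voom called 0. An unadjusted p under 0.05 was reached by 1, against 5.05% of all genes. On day 7, 1 of 18 was DE against 0.758% of all genes. It was Loxl4, a relative of Loxl2, with 0.49 and 0.51 TPM in normoxia and 2.64 and 1.77 on day 7 (log2 fold change 1.42 ± 0.23, adjusted p 0.055). In TSCs, none of 19 was DE on day 2 or on day 7 against normoxia, and voom called 0. An unadjusted p under 0.05 was reached by 0 and 1, against 13.1% and 10.4% of all genes. From day 2 to day 7, 2 of 19 were DE against 16.2% of all genes, as the prolyl isomerase Ppib rose (0.72 ± 0.22, adjusted p 0.089) and the collagen galactosyltransferase Colgalt1 fell (-0.63 ± 0.20, adjusted p 0.099).

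In XEN cells none of 17 other processing genes was DE, and voom called 0. An unadjusted p under 0.05 was reached by 2 on day 2 and 4 on day 7, against 7.77% and 9.01% of all genes. Loxl4 was 0.67 and 0.27 TPM in normoxia, 1.5003 and 2.93 after 2 days of hypoxia, and 3.49 and 1.51 after 7 days. Fkbp10, a prolyl isomerase that acts with Plod2 on telopeptides, was 4.29 and 7.51 TPM in normoxia, 5.84 and 6.94 after 2 days of hypoxia, and 86.1 and 15.5 after 7 days. Creb3l1, a transcription factor of collagen secretion, was 7.30 and 6.37, then 12.008 and 7.80, then 51.3 and 20.008. Both were highest in day 7 replicate 1, with log2 fold changes on day 7 of 2.59 ± 0.71 and 2.16 ± 0.43 (adjusted p 0.389 and 0.224).

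The 9 oxidative folding genes of the endoplasmic reticulum that were tested, which work beside P4hb, held 0 DE genes in every comparison with normoxia. No unadjusted p was under 0.05 among them, and voom called 0. Their median log2 fold changes lay between -0.22 (TSCs, day 2) and 0.25 (XEN cells, day 2).

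Among collagens, Col1a1 in ESCs on day 7 was the only fibrillar collagen of 6 tested there that was DE by limma. Voom called 2 of the 6, against 0.905% of all genes, and 5 had an unadjusted p under 0.05, against 8.04%. Both day 7 libraries lay above normoxia for 6 of 6, against 23% of all genes. Col4a1 and Col4a2, the basement membrane chains, had log2 fold changes of 0.82 ± 0.18 and 0.84 ± 0.21 in ESCs on day 7 (adjusted p 0.147 and 0.205), which voom called. In TSCs, 0 of 10 fibrillar collagens were DE against normoxia at either time, and voom called 0. An unadjusted p under 0.05 was reached by 0 and 1, against 13.1% and 10.4% of all genes. From day 2 to day 7, 1 of 10 was DE against 16.2% of all genes, as Col2a1 fell (-2.34 ± 0.44, adjusted p 0.031). In XEN cells, none of 3 fibrillar and 2 basement membrane collagens was DE or had an unadjusted p under 0.05, and voom called 0.

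Likeness between members was described across all 18 libraries after the mean of each cell type was taken off, on log2(TPM + 0.5) and against 10080 other genes tested in all 3 cell types. The libraries share conditions and depth within a cell type, so no p is given. P4ha1 and Plod2 had r = 0.87, and each was among the 3 genes most like the other. P4ha1 had r = 0.78 with Loxl2 and 0.77 with P4ha2, whereas it had 0.06 with P4hb. P4hb had its highest r among members with Serpinh1, at 0.52.

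Over all genes compared, those most like P4ha1 were Spg21 (0.91), Plod2 (0.87) and Aoc3 (0.87), and those most like Plod2 were Ift81 (0.88), P4ha1 and Glg1 (0.87). P4ha2 was most like Dhcr7 (0.88), Egln1 (0.87) and Fam162a (0.86), and Egln1 is a prolyl hydroxylase that marks hypoxia-inducible factors. For P4hb they were Sec61b (0.88), Tmed9 (0.88) and B9d1 (0.86), the first of which is a subunit of the translocon. Plod1 was most like Zfp112 (0.84), Ccdc107 (0.83) and Slc38a10 (0.82), and Plod3 was most like Ttc8 (0.86), Clcn4 (0.85) and Mllt11 (0.82). Loxl2 was most like Adgra2 (0.82), Tro (0.82) and Lipa (0.80), and Serpinh1 like Snx19 (0.83), Reep5 (0.79) and Csf1 (0.78).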

How the data were processed

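Bulk RNA-seq libraries, 2 per condition, from normoxic and hypoxic (day 2, day 7) cells of each type were analysed. Per the submitters' processing notes and the methods, reads were trimmed with cutadapt 2.4, aligned to mm10 with STAR 2.7.5a, handled with StringTie 2.0.6 and counted with featureCounts. The authors deposited TPM, 1 table per cell type. TPM times the distance from gene start to end fell on whole multiples of a step in each library (98.7% to 98.9% of values within 0.05), so reads were recovered whole and exon-length TPM recomputed (GENCODE). The day 0 columns were taken as normoxia, and 0 columns were left unmapped.

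The limma package (version 3.58.1, R 4.3.3) was used on log2 of TPM plus 0.5 (mean-variance trend, the 6 libraries of a cell type, no block), over genes above 0.4 TPM in at least 2 libraries, and the fit was tested on simulated data. Genes named beyond the members were, per list, up to 3 of the largest rises and falls among DE genes or, with none DE, among all, plus the 3 genes of highest r to each member. The members and lists were chosen with earlier results of these data known. Alternatives were other pseudocounts, filters and scalings, exon-length TPM, voom, a replicate block, no trend, a stricter threshold, fits to 4 libraries and each library left out. A block with swapped day 2 numbers and a fit without both TSC libraries high in fibroblast markers were added after seeing the data. Python 3.11.15 was used for the rest.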

Additional observations from a re-analysis of the deposited data

Results flagged for a closer look

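Plod2 in TSCs differed between the time points of hypoxia by the test of that difference, with a log2 fold change of -1.11 from day 2 to day 7 (adjusted p 0.046, limma), lower in both day 7 libraries than in both day 2 libraries. Plod1 on day 7 moved in opposite directions in different cell types, with both hypoxic libraries above both normoxic libraries in ESCs (log2 fold change 0.44) and below them in TSCs (-0.33). This difference between cell types was not tested, since the tables were normalized separately, and neither value passed the test within its cell type (adjusted p 0.651 and 0.640). With 2 libraries per group, no library could be tested as an outlier.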

How the results depend on the processing

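In ESCs on day 7, 0 members were DE, which became 1 with exon-length TPM, 1 with voom, 3 in the fit to the 4 libraries compared and 0 to 3 with each library left out. On day 2 in ESCs, the count of 0 DE members changed only without day 2 replicate 1, where calls rested on replicate 2 alone. In TSCs from day 2 to day 7, the 1 DE member became 0 to 1 with each library left out and 2 without both libraries high in fibroblast markers. All other counts of DE members kept their value of 0 under every alternative run. A sign was read as reversed where the value was larger than its SE and changed sign. This happened for 3 of 1377 alternative values, for P4ha2 in ESCs on day 2 (-0.0851 to 1.13 with each library left out), P4ha1 in TSCs on day 7 (-0.0486 to 0.74) and Serpinh1 in TSCs from day 2 to day 7 (-0.00169 to 0.61), and the cause was not tested. A further 67 alternative values changed sign from values within their SE.

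With the replicate number as a block, counts of DE members did not change, with 0 in ESCs on day 7 (P4ha1 at adjusted p 0.290) and 1 in TSCs from day 2 to day 7 (Plod2 at adjusted p 0.071). The labels do not say that numbers mark a shared culture, and deviations of same-numbered libraries correlated between -0.46 and 0.27 over genes, so the numbers were not taken as pairs. With the day 2 numbers swapped, 4 members were DE in ESCs on day 7, 1 in TSCs from day 2 to day 7 and 0 elsewhere. The precision is that of 2 libraries per group. The lowest value, Loxl2 in normoxic ESCs, rested on 123 reads, and members of TSCs and XEN cells on 1775 or more.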
